A study of Mus musculus with 3 samples.

Results

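The genes described here are 9 mouse genes known from neural development: Sox1, Sox4, Sox11, Neurod1, Pax6, Nes, Msi1, Mapt and Gap43. They were taken by Entrez gene number from the gene tables of 3 RNA-seq libraries, which together list 17997 genes. All 9 had a row in Lef1 P5 and in empty vector P2, and 8 in Lef1 P2, where Gap43 was not listed and was taken as 0. All libraries were made from 46C cells, a mouse embryonic stem cell line of strain 129, which grew on gelatin in serum medium to which LIF (leukemia inhibitory factor) was added. Lef1 P5 and Lef1 P2 are cells into which Lef1 had been introduced, collected at passage 5 and passage 2, and empty vector P2 is cells that received the vector alone, collected at passage 2. Each group is 1 library, so no test between groups was possible and no p-value is given. The labels do not say whether each culture was a pool or a clone, and no empty-vector culture of passage 5 was analysed here, so that Lef1 P5 differs from empty vector P2 in the introduced gene and in passage, which cannot be told apart. The members were chosen by their FPKM levels and differences in these same libraries, so the values below are a description and not a test.

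Neural fate is set up in the embryo by transcription factors that act in sequence. Sox1 is among the earliest genes to mark cells of the neural plate, Pax6 patterns the forebrain and eye, proneural basic helix-loop-helix (bHLH) factors such as Neurod1 drive progenitors to become neurons, and the related factors Sox4 and Sox11 act as neurons mature. Nes (nestin, an intermediate filament protein) and Msi1 (Musashi-1, an RNA-binding protein) are used as progenitor markers, and Mapt (tau) and Gap43 (a growth-cone protein) act in axons. The 46C line carries a green fluorescent reporter in a Sox1 allele in place of the coding sequence, and the gene tables have no row for the reporter. Which allele the Sox1 reads come from was not tested.

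The authors' values are FPKM (fragments per kilobase, scaled by library size), with the expected read count behind each. The expected counts summed to 9380813 in Lef1 P5, 9170554 in Lef1 P2 and 9225401 in empty vector P2, so that 3 reads on 1 kb of transcript are worth 0.320, 0.327 and 0.325 FPKM in that order. Lef1 stood at 214 FPKM in Lef1 P5, 135 FPKM in Lef1 P2 and 1.49 FPKM in empty vector P2. The stem cell markers Pou5f1, Nanog, Sox2, Zfp42 and Esrrb summed to 1975 FPKM in Lef1 P5, 1476 FPKM in Lef1 P2 and 2053 FPKM in empty vector P2, and none was called in either comparison with empty vector P2. The call rule asked for a log2((x + 1)/(y + 1)) of FPKM values of at least 1 in size, and for at least 3 FPKM and 20 expected reads in whichever library was higher. Intervals in parentheses are exact 95% Poisson intervals from the expected counts and cover counting error only; they leave out the difference between cultures. The counts of all 9 members were whole numbers in every library.

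Promoters are shown for Sox4, Sox11 and Neurod1, which were called lower together in Lef1 P2, and for Nes, which was called higher. Gap43, the remaining member called in that library, had no promoter among the sequences used and is not shown. The sequences are the bases upstream of the RefSeq start in GRCm38.p6, 5′ to 3′ on the gene's strand, cut where a GENCODE transcript of the gene begins earlier. Capitals mark E-boxes (CANNTG, the site type that bHLH factors bind) and GC boxes (GGGCGG read on either strand). The build differs from the mm8 build of the submitters' processing notes, and no read was placed on these coordinates.
Neurod1, chr2:79456752-79456886, minus strand: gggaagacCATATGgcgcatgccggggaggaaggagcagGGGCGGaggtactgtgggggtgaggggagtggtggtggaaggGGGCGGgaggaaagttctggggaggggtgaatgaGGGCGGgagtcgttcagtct
Sox11, chr12:27342719-27342968, minus strand: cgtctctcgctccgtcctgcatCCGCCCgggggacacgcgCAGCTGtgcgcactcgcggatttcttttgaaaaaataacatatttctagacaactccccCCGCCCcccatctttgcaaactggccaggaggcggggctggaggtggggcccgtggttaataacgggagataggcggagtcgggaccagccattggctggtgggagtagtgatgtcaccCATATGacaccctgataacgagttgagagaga
Sox4, chr13:28953714-28953949, minus strand: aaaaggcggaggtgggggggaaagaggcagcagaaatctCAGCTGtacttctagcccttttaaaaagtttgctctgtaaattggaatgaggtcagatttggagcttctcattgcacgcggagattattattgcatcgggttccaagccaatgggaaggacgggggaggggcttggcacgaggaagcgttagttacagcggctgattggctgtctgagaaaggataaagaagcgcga
Nes, chr3:87970843-87971077, plus strand: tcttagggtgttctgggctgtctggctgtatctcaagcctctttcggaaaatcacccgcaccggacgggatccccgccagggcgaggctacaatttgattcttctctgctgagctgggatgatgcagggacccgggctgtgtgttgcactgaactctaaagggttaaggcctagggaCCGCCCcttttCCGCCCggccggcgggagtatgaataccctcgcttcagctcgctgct

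Of the 9 members 6 had a promoter in the RefSeq table, while Msi1, Mapt and Gap43 had none. Windows of 250 bases upstream of the RefSeq start were searched on both strands and, unlike the sequences shown, were not cut. A GENCODE transcript begins 224 bases before that start for Sox1 and 115 bases before it for Neurod1. Most of the Sox1 window thus lies downstream of an annotated transcript start. The core of the Tcf/Lef site, CTTTGA, occurred in none of the 6 windows; 14.05% of all 27025 promoter windows of that length hold it, and its absence says only that these letters are not in the window. E-boxes occurred in the windows of Sox11 (2), Sox4 (1) and Neurod1 (1) and not in those of Nes, Sox1 and Pax6, against 66.0% of all windows. GC boxes occurred in Neurod1 (4), Sox1 (3), Sox11 (2) and Nes (2), against 32.9% of all windows, and no base belonged to more than 1 kind of motif. The Neurod1 GC box 60 bases before the start is in the stretch cut from the sequence shown. Those of Sox1, at 211, 112 and 34 bases, all lie downstream of the GENCODE start. The Sox1 window had 29 CpG dinucleotides and 71.2% G + C, more CpG than 93.6% of the windows, whereas Sox4 with 11 CpG lay above 64.0% of them. The median window has 6 CpG. These matches describe the sequence and are not binding sites.

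In Lef1 P2 against empty vector P2, the transcription factor genes Neurod1, Sox11 and Sox4 and the axon gene Gap43 were lower, and the progenitor filament gene Nes was higher. Of the 9 members 4 were called lower, beside 1.82% of the 10651 genes at the minimum level, and 1 higher, beside 6.49%. That is 5 called, beside 8.31% of genes, and 7 of the 9 reached the level. The median difference of the members was -0.53 on the log2(FPKM + 1) scale, and that of the 12894 genes at 1 FPKM or more in a library was 0.11. In Lef1 P5 against empty vector P2, Neurod1, Mapt and Gap43 were lower: 3 members, beside 1.28% of 10121 genes, with a median of -0.53 against -0.02 for all genes, and 0 were higher, beside 1.4%, while 2.69% of genes were called in either direction. The comparisons share the empty-vector library, so the values of each are given side by side and their likeness is not read as a result. In Lef1 P5 against Lef1 P2, Msi1 was lower, 1 member beside 6.86% of 10593 genes, and 0 were higher, beside 1.88%, with 8.74% of genes called in either direction. In that comparison 4 of the 9 members reached the level, and in Lef1 P5 against empty vector P2 7 did. The members' median in Lef1 P5 against Lef1 P2 was -0.07, above the -0.17 of all genes, with 4 members above 0 and 5 below. Read against these shares, the members' counts describe genes that were picked with the values in view.

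**Figure D1:**
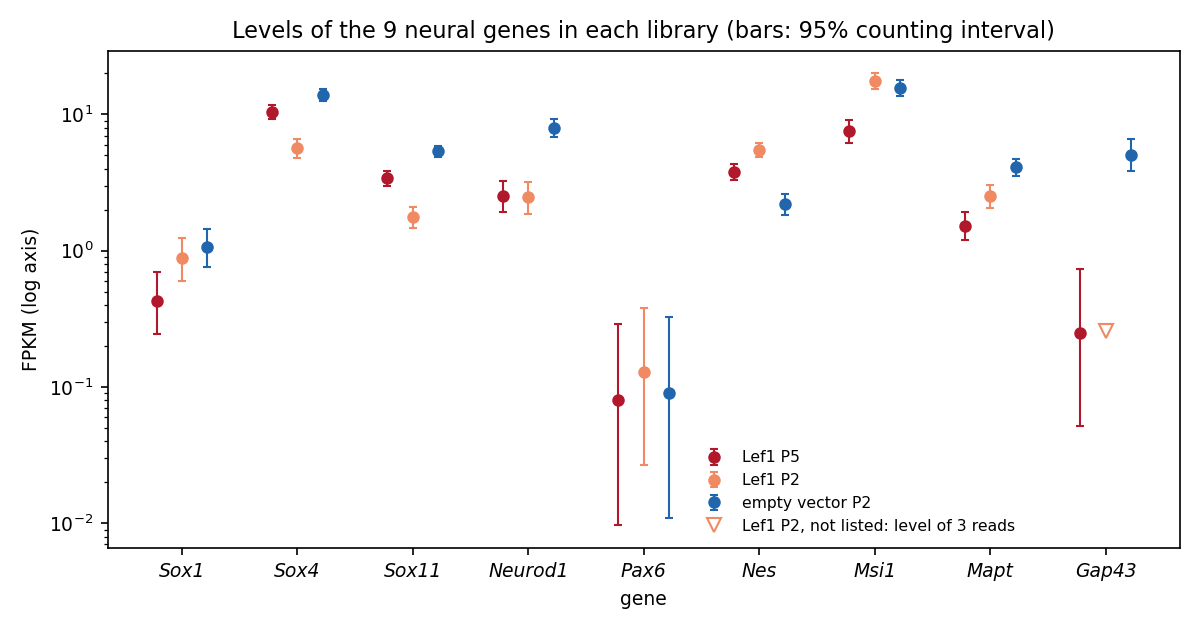
FPKM of the 9 genes (log axis) in Lef1 P5 (dark red), Lef1 P2 (orange) and empty vector P2 (blue), with exact 95% counting intervals as bars; the open triangle is the level of 3 reads for Gap43, which Lef1 P2 does not list. Neurod1 lies at 2.53 and 2.46 FPKM in the Lef1 libraries and at 7.95 FPKM in empty vector P2.

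The members lay far below the pluripotency genes in every library. They summed to 29.9 FPKM in Lef1 P5, 36.5 FPKM in Lef1 P2 and 55.4 FPKM in empty vector P2, and 4, 3 and 6 of them reached 3 FPKM. In Lef1 P5 the order of levels was Sox4, Msi1, Nes, Sox11, Neurod1, Mapt, Sox1, Gap43 and Pax6. The intervals of Nes and Sox11, of Sox11 and Neurod1, and of each pair among Sox1, Gap43 and Pax6 overlapped. In Lef1 P2 the order was Msi1, Sox4, Nes, Mapt, Neurod1, Sox11, Sox1, Pax6 and Gap43. There Sox4 and Nes overlapped, as did each pair among Mapt, Neurod1 and Sox11, and Pax6 and Gap43. In empty vector P2 it was Msi1, Sox4, Neurod1, Sox11, Gap43, Mapt, Nes, Sox1 and Pax6, and Msi1 and Sox4, Sox11 and Gap43, and Gap43 and Mapt overlapped. Nes was thus the gene ranked 3 of 9 in both Lef1 libraries and 7 of 9 in empty vector P2. RNA of whole cultures was measured, so fewer cells of a kind and less RNA per cell cannot be told apart.

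Sox1, the gene of the reporter locus, was at a low level in all libraries. It had 16 reads or 0.43 FPKM (0.246 to 0.698) in Lef1 P5, 32 reads or 0.88 FPKM (0.602 to 1.24) in Lef1 P2 and 39 reads or 1.06 FPKM (0.754 to 1.45) in empty vector P2. Lef1 P5 was the low library, and its interval did not overlap that of empty vector P2, while the other pairs of intervals did. The ratio of Lef1 P5 to empty vector P2 was 0.406 (0.212 to 0.743). Because no library reached 3 FPKM, Sox1 could not be called, and its differences were -0.13 in Lef1 P2 and -0.53 in Lef1 P5 on the log2(FPKM + 1) scale.

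Few annotated neighbours of Sox1 had a row in the tables. Of the 3 genes on each side in GRCm38, Gm33175, Gm51562, Gm33326, Gm33532 and Spaca7 were listed in no library. The tables were made on another build, so a missing row does not tell a gene without reads from one outside the annotation. Sox1ot, a long noncoding RNA gene that overlaps the Sox1 region, was at 0.11 FPKM in Lef1 P5, 0.05 FPKM in Lef1 P2 and 0 in empty vector P2, with 5.18, 2.14 and 0 expected reads. Its counts were not whole and are within a few reads of 0 in every library. The nearest listed protein-coding genes were named after this was seen: Arhgef7, a guanine nucleotide exchange factor gene, at 15.3, 15.1 and 18.2 FPKM, and Tubgcp3, a gamma-tubulin complex gene, at 9.11, 10.6 and 10.05 FPKM in Lef1 P5, Lef1 P2 and empty vector P2. Beyond Tubgcp3, the phospholipid flippase gene Atp11a was at 5.83, 9.86 and 9.54 FPKM. Its ratio of Lef1 P5 to empty vector P2 was 0.611 (0.539 to 0.693). None of the 3 was called, and any link of their levels to that of Sox1 was not tested.

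Sox4 and Sox11 encode closely related activators of the SoxC group. For Sox4, Lef1 P5 had 10.4 FPKM (9.24 to 11.7), Lef1 P2 had 5.66 FPKM (4.79 to 6.64) and empty vector P2 had 13.98 FPKM (12.6 to 15.5). Sox11 had 3.39 FPKM (2.996 to 3.82), 1.76 FPKM (1.48 to 2.08) and 5.35 FPKM (4.85 to 5.89) in the same libraries. For both genes Lef1 P2 was lowest, Lef1 P5 lay between and empty vector P2 was highest, and no intervals overlapped. In Lef1 P2, Sox4 was 2.47-fold lower (2.04 to 3.003) and Sox11 3.04-fold lower (2.50 to 3.72) than in empty vector P2, with reads of 151 and 376 for Sox4 and 136 and 415 for Sox11. Lef1 P5 against empty vector P2 gave ratios of 0.745 for Sox4 and 0.634 for Sox11, which were not called. Lef1 P5 had 1.84 times the Sox4 level (1.505 to 2.26) and 1.93 times the Sox11 level (1.56 to 2.39) of Lef1 P2; these were called higher with quantile scaling, at 1.06 and 1.00 on the log2 scale, and not as deposited.

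Of the 18 listed genes of the Sox family 9 reached 3 FPKM in a library. In Lef1 P2 against empty vector P2, 3 were higher and 2 lower, beside 6.49% and 1.82% of all genes, and in Lef1 P5 3 were higher and 0 lower, beside 1.4% and 1.28%. The lower ones were the members Sox4 and Sox11, which were chosen by their values in these libraries, and 0 were lower without the members. The higher ones in both comparisons were the endoderm factor genes Sox17 and Sox7 and the neural progenitor repressor gene Sox21. Sox21 was at 4.58 FPKM in Lef1 P5, 4.37 FPKM in Lef1 P2 and 1.13 FPKM in empty vector P2. Sox12, the other SoxC gene, was at 12.3, 10.7 and 19.1 FPKM, and was not called; its Lef1 P5 and Lef1 P2 intervals overlapped. The SoxB1 relatives of Sox1 were not called: Sox2, a factor of both pluripotent and neural progenitor cells, was at 205, 192 and 254 FPKM, and Sox3 at 0.84, 0.81 and 0.85 FPKM.

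Neurod1 was lower in both Lef1 libraries, whose intervals overlapped, than in empty vector P2. It had 2.53 FPKM (1.92 to 3.27) from 58 reads in Lef1 P5, 2.46 FPKM (1.85 to 3.20) from 55 reads in Lef1 P2 and 7.95 FPKM (6.83 to 9.20) from 179 reads in empty vector P2. It was 3.14-fold lower in Lef1 P5 (2.32 to 4.30) and 3.23-fold lower in Lef1 P2 (2.38 to 4.46) than in empty vector P2. The ratio of Lef1 P5 to Lef1 P2 was 1.03 (0.699 to 1.52).

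No other proneural factor gene was near the level of Neurod1. Of the 21 genes of the proneural bHLH and E protein list 17 were listed and 4 reached 3 FPKM, and Neurod1 was the 1 called lower in each comparison with empty vector P2. The remaining 3 were the E protein genes, whose products pair with proneural factors: Tcf3 at 52.2, 48.4 and 57.3 FPKM, Tcf12 at 6.38, 8.35 and 6.60 FPKM and Tcf4 at 4.03, 4.97 and 5.24 FPKM in Lef1 P5, Lef1 P2 and empty vector P2. Neurog1 and Neurog2, which act early in neurogenesis, were at no more than 0.40 FPKM in any library. Neurog3, which is also among the endocrine markers below, was at no more than 0.58 FPKM. Among 9 genes for inhibitors of bHLH factors, Id4 was called higher in Lef1 P2, at 7.09 FPKM against the 1.35 FPKM of empty vector P2, and had 3.58 FPKM in Lef1 P5, where it was called with median-of-ratios scaling (log2 difference 1.00) and not as deposited (0.96). Id1, Id3, Hes1 and Id2 were the highest of the list in Lef1 P5, with Id1 at 34.6, 52.5 and 56.7 FPKM, and were not called.

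Pax6 was at the counting limit. It had 0.08 FPKM from 2 reads in Lef1 P5, 0.13 FPKM from 3 reads in Lef1 P2 and 0.09 FPKM from 2 reads in empty vector P2. All 3 intervals overlapped, with an upper end of 0.380 FPKM in Lef1 P2, and at this depth no difference was detectable. Of the 47 neural plate and regional factor genes, Pax6 among them, 6 reached 3 FPKM. Otx2, a gene of epiblast and forebrain, was called higher in Lef1 P2 (20.2 FPKM against 9.26 FPKM), though not under any of the other scalings, and in Lef1 P5 (23.8 FPKM). Pou3f1, a gene of late epiblast and early neural cells, was lower in Lef1 P5 at 2.27 FPKM and in Lef1 P2 at 2.29 FPKM, against 6.26 FPKM in empty vector P2. Gbx2, a gene of the hindbrain border and of naive stem cells, was lower in Lef1 P2, at 6.02 FPKM against 13.2 FPKM.

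**Figure D2:**
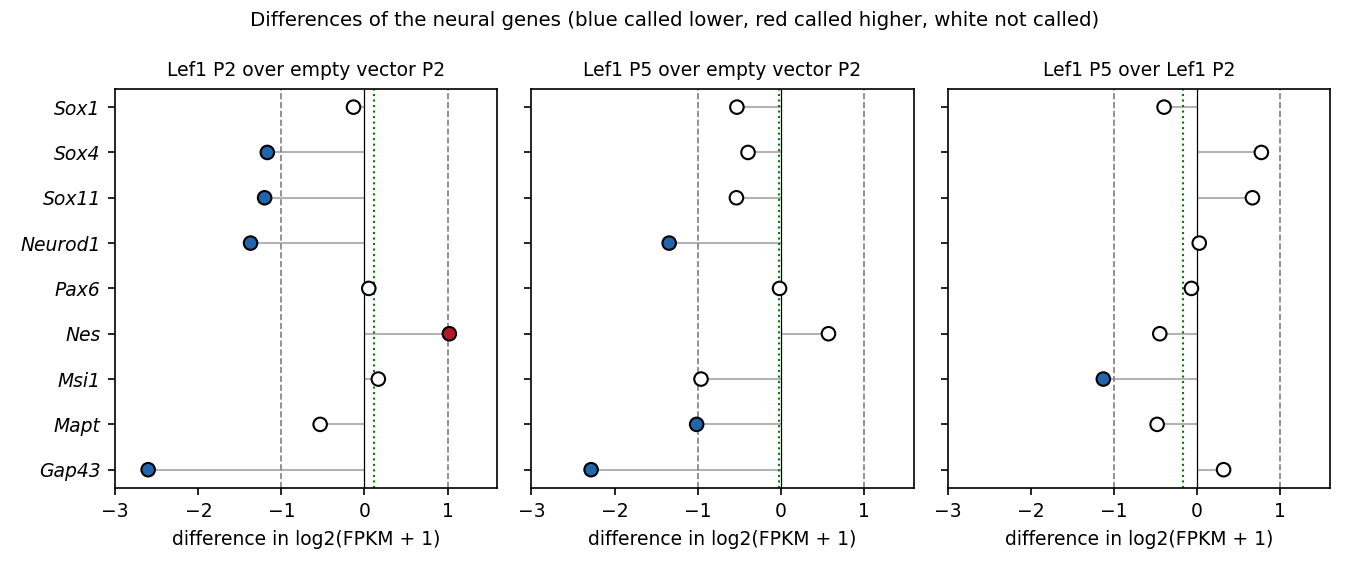
Difference in log2(FPKM + 1) of each of the 9 genes in the 3 comparisons, with filled points for genes called lower (blue) or higher (red) and open points for genes not called; dashed lines mark 1 and -1, and the dotted line is the median of all genes. Gap43 lies at -2.60 and -2.28 against empty vector P2, and Nes at 1.02 in Lef1 P2.

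Against empty vector P2 the progenitor markers Nes and Msi1 did not move together, while both were lower in Lef1 P5 than in Lef1 P2. Nes had 3.77 FPKM (3.28 to 4.31) from 216 reads in Lef1 P5, 5.50 FPKM (4.90 to 6.15) from 307 reads in Lef1 P2 and 2.20 FPKM (1.83 to 2.62) from 124 reads in empty vector P2. Lef1 P2 was highest and empty vector P2 lowest, and no intervals overlapped. Nes was 2.50-fold higher (2.02 to 3.11) in Lef1 P2 than in empty vector P2. At 1.02 on the log2(FPKM + 1) scale it lay just past the threshold, and it was no longer called with median-of-ratios (0.90), TMM (0.90) or quantile (0.74) scaling, which move the median of all genes by -0.14 in this comparison. Lef1 P5 was 1.71-fold (1.37 to 2.15) above empty vector P2 and was not called. It was 1.46-fold (1.22 to 1.74) below Lef1 P2, which was not called either.

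Msi1 had 7.54 FPKM (6.17 to 9.12) from 106 reads in Lef1 P5, 17.6 FPKM (15.5 to 20.01) from 241 reads in Lef1 P2 and 15.6 FPKM (13.6 to 17.8) from 215 reads in empty vector P2. Lef1 P5 was low, and the passage-2 libraries overlapped. Msi1 was called lower in Lef1 P5 against Lef1 P2, 2.34-fold (1.85 to 2.97), but not with median-of-ratios (-0.94), TMM (-0.96) or quantile (-0.94) scaling, which move the median of all genes by 0.17, 0.16 and 0.17 in this comparison. Against empty vector P2 it was 2.07-fold lower in Lef1 P5 (1.63 to 2.64), a log2 difference of -0.96 just short of the threshold and not called.

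Of the 20 listed neural progenitor genes 9 reached 3 FPKM in a library. Nes was the 1 higher in Lef1 P2 than in empty vector P2, beside 6.49% of all genes. As a member it was chosen by its values, and 0 were higher without the members. Slc1a3, a glutamate transporter gene of radial glia, was the 1 lower, at 5.87 FPKM against 13.6 FPKM, beside 1.82%. Slc1a3 had 11.6 FPKM in Lef1 P5. In Lef1 P5 the cell-surface gene Cd24a was the 1 higher, at 36.8 FPKM against 17.1 FPKM, beside 1.4%, and 0 were lower, beside 1.28%. Vim, the gene of vimentin, which pairs with nestin in filaments, was at 143 FPKM in Lef1 P5, 54.1 FPKM in Lef1 P2 and 98.4 FPKM in empty vector P2. It was called higher in Lef1 P5 against Lef1 P2, and lower in Lef1 P2 against empty vector P2 with median-of-ratios and TMM scaling but not as deposited. Msi2, the relative of Msi1, was at 13.9, 14.7 and 21.2 FPKM and was not called.

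Gap43 differed most among the members. It had 0.25 FPKM (0.0516 to 0.731) from 3 reads in Lef1 P5, was not listed in Lef1 P2 and had 5.08 FPKM (3.87 to 6.55) from 59 reads in empty vector P2. The Lef1 libraries overlapped and both lay below empty vector P2. Against the floor of 3 reads in that library, Gap43 was at least 19.7-fold lower in Lef1 P2 than in empty vector P2; with the counting error of the 59 reads included, the 95% interval of the ratio allows 15.5-fold lower. In Lef1 P5 the ratio rests on 3 reads and was 0.0492 (0.00987 to 0.151).

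Mapt had 1.52 FPKM (1.19 to 1.91) from 73 reads in Lef1 P5, 2.51 FPKM (2.07 to 3.02) from 114 reads in Lef1 P2 and 4.08 FPKM (3.52 to 4.70) from 192 reads in empty vector P2. The 3 intervals did not overlap, with Lef1 P5 lowest. Mapt was called lower in Lef1 P5 against empty vector P2, 2.68-fold (2.04 to 3.56), at a log2 difference of -1.01. That call was lost with median-of-ratios (-0.99) and quantile (-0.95) scaling. Lef1 P2 was 1.63-fold (1.28 to 2.07) below empty vector P2 and not called. Mapt has 5 RefSeq transcripts in the tables, and the length used was 5156, 5000 and 5153 bases in the 3 libraries.

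Genes of the axon and neuronal cytoskeleton went both ways. Of the 45 listed genes, 34 reached 3 FPKM in a library, and 6 were higher and 9 lower in Lef1 P2 than in empty vector P2, with a median of -0.13, beside 6.49% and 1.82% of all genes and their median of 0.11. The split of the whole list was 5 higher and 12 lower with each of the 3 other scalings. The list holds the members Gap43 and Mapt, which were chosen by their values in these libraries. Without them, 6 were higher and 8 lower as deposited, with a median of -0.11. Besides Gap43, the lowest were Crmp1, a gene for a collapsin response protein (3.61 FPKM against 15.5 FPKM), and Ina, the gene of alpha-internexin (2.32 FPKM against 9.05 FPKM). The classical neurofilament genes differed from Ina and from each other. Nefl was at 23.8 FPKM in Lef1 P2 against 3.16 FPKM and was called higher; Nefm was at 3.56 FPKM against 0.27 FPKM and was called higher except with quantile scaling. Nefh, at 3.56 FPKM against 6.69 FPKM, was called lower with quantile scaling only. The signalling ligand gene Efnb1 was also higher, at 5.25 FPKM against 1.08 FPKM.

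The most strongly expressed of these genes encode microtubule proteins, and stem cell cultures of all 3 groups had them at high levels. Stmn1, the gene of the microtubule-destabilising protein stathmin, was at 402 FPKM in Lef1 P5, 179 FPKM in Lef1 P2 and 513 FPKM in empty vector P2. Tuba1a was at 253, 109.96 and 279 FPKM and Tubb2b at 252, 116 and 224 FPKM, with counts that were not whole. Stmn1 and Tuba1a were called lower in Lef1 P2 against empty vector P2 and, except with quantile scaling, higher in Lef1 P5 against Lef1 P2. The remaining genes called lower in Lef1 P2, named after their values were seen, were Stmn3, Map1a, Uchl1 and Map1b. The remaining ones called higher there were Ephb2, Prph and Marcks, of which Marcks was not called with median-of-ratios or TMM scaling (0.93 each). In Lef1 P5 against Lef1 P2, 4 genes of the list were higher and 5 lower, beside 1.88% and 6.86% of all genes. The higher ones were Tuba1a, Stmn1, Tubb2b and Nefh, and the lower ones Cntn2, Prph, Efnb1, Rtn1 and Ephb2. With median-of-ratios and with TMM scaling 5 were higher and 3 lower, and with quantile scaling 3 were higher and 2 lower. Rtn1 and Ephb2 were called with none of these scalings. In Lef1 P5 against empty vector P2, 2 genes were higher, beside 1.4% of all genes, and 4 lower, beside 1.28%. The higher ones were Nefl at 14.5 FPKM and the semaphorin receptor gene Nrp2 at 8.59 against 3.33 FPKM. The lower ones were Gap43, Crmp1 at 5.90 FPKM, Map1a and Mapt. Without the members Gap43 and Mapt, 2 were lower.

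**Figure D3:**
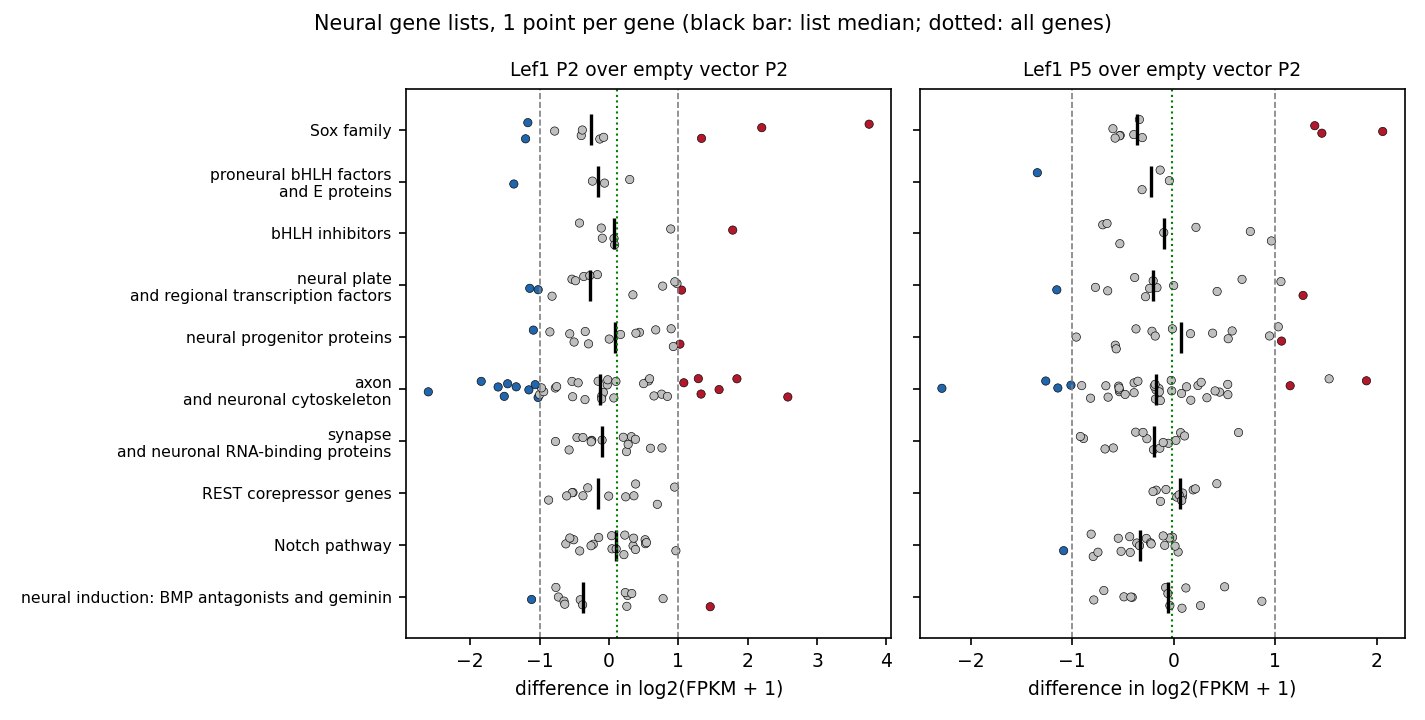
Difference in log2(FPKM + 1) against empty vector P2 for the genes of 10 neural lists at 1 FPKM or more in a library, in Lef1 P2 (left) and Lef1 P5 (right), with black bars at list medians, blue for genes called lower, red for genes called higher and grey for genes not called. The axon and cytoskeleton list, members included, has 9 genes lower and 6 higher in Lef1 P2.

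The lists for later neuronal function and for signals around neural fate held few called genes. None of the 28 synapse and neuronal RNA-binding genes was called as deposited in any comparison; Ptbp1, a splicing repressor of neuronal exons, was at 297, 185 and 276 FPKM in Lef1 P5, Lef1 P2 and empty vector P2. Celf4 was called lower in Lef1 P2 with quantile scaling. Of 12 genes of the REST corepressor, which silences neuronal genes outside neurons, 0 were called against empty vector P2, and Rest was at 46.4, 36.3 and 52.4 FPKM; the histone deacetylase gene Hdac1 was called lower in Lef1 P2 with median-of-ratios and TMM scaling. Of 21 Notch pathway genes, 0 were called in Lef1 P2 and the ligand gene Dll1 was lower in Lef1 P5, at 1.10 FPKM against 3.45 FPKM. In Lef1 P5 against Lef1 P2, 3 Notch genes were lower as deposited (Dll1, Numbl and Notch3), beside 6.86% of all genes, and 0 with each of the other scalings. In the neural induction list of 16 genes, the inhibitory Smad gene Smad7 was higher in Lef1 P2 (41.05 FPKM against 14.3 FPKM) and the zinc finger gene Zfp423 lower (3.14 FPKM against 7.97 FPKM), and 0 were called in Lef1 P5.

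Pooled over the 10 lists and without the members, 12 genes were higher and 12 lower of 108 at 3 FPKM in Lef1 P2 against empty vector P2, which is 11.1% each, beside 6.49% higher and 1.82% lower of all genes. In Lef1 P5 against empty vector P2, 7 were higher and 4 lower of 101, 6.93% and 3.96%, beside 1.4% and 1.28% of all genes. The lists were chosen with these data known, and nothing particular to them is read from the shares. The medians of the 137 genes at 1 FPKM or more were -0.08 and -0.14, beside 0.11 and -0.02 for all genes. The plot of all genes shows where the members lie among them.

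**Figure D4:**
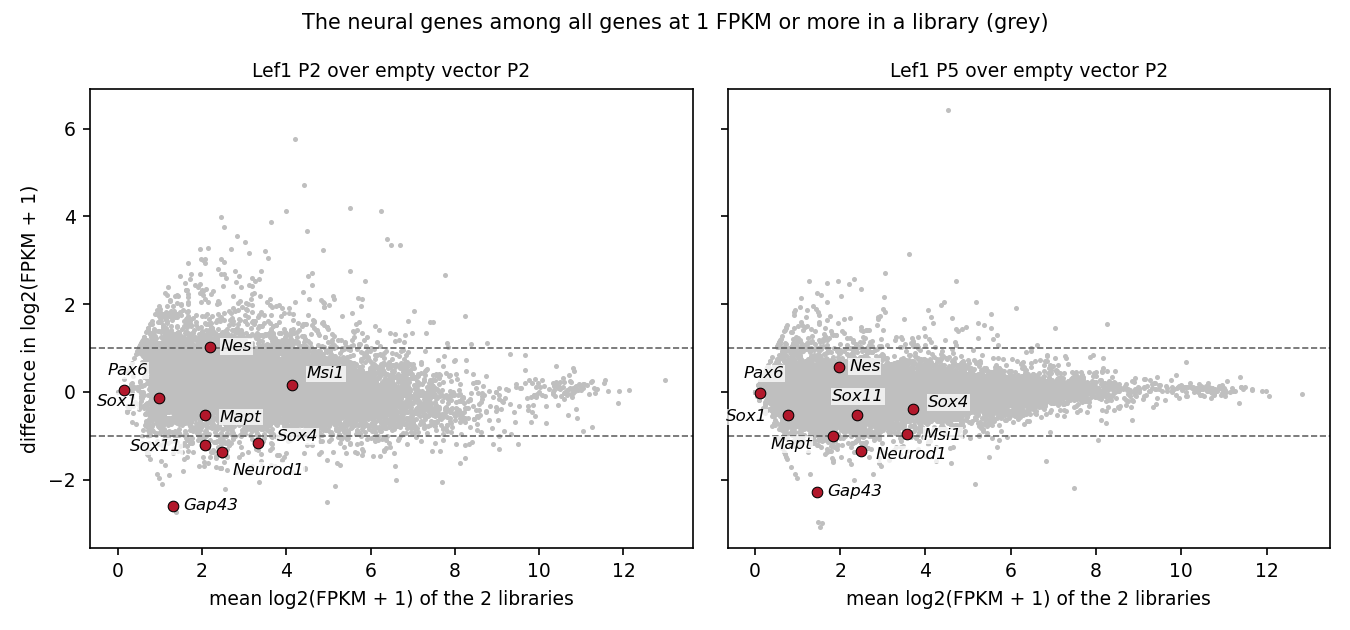
Difference in log2(FPKM + 1) against the mean log2(FPKM + 1) for the 12894 genes at 1 FPKM or more in a library (grey) and the 9 neural genes (red), for Lef1 P2 (left) and Lef1 P5 (right) over empty vector P2; Pax6 is drawn although it is below that level. The dashed lines mark 1 and -1, and Neurod1 and Gap43 lie under -1 in both panels.

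Markers of other cell types were read beside these results. The 11 primitive endoderm markers summed to 341 FPKM in Lef1 P5, 1300.3 FPKM in Lef1 P2 and 93.0 FPKM in empty vector P2. Against empty vector P2, 11 of these markers were called higher in Lef1 P2, beside 6.49% of all genes, and 9 in Lef1 P5, beside 1.4%. They are highest in the library in which Sox4, Sox11 and Stmn1 were lowest, and their part in those levels was not tested. The 9 neuron markers summed to 193, 154 and 227 FPKM, most of it Stmn2, a growth-associated stathmin gene, at 166, 132 and 190 FPKM; Dcx was at 0 in every library and Rbfox3, the gene of the neuronal nuclear antigen NeuN, at 0.24, 0.55 and 0.35 FPKM. None of these was called as deposited, while Tubb3, at 20.6, 13.2 and 27.3 FPKM, was called lower in Lef1 P2 under all 3 other scalings. The 8 glia markers summed to 2.59 FPKM in Lef1 P5, 6.95 FPKM in Lef1 P2 and 3.09 FPKM in empty vector P2, and S100b and Aqp4 were at 0 in every library. Of these Mbp, a myelin protein gene, was called higher in Lef1 P2 (3.38 FPKM against 0.69 FPKM) except with quantile scaling. The 8 neural crest markers summed to 12.97, 12.7 and 11.7 FPKM, and Twist1 was called higher in Lef1 P2 (4.01 FPKM against 1.35 FPKM) as deposited but with none of the other scalings. The part of these markers in the members' levels was not tested. Of the 9 endocrine markers, listed because Neurod1 and Pax6 also act in hormone-producing cells, Ins1, Ins2, Gcg and Sst were listed in no library, and Chga was at 9.73, 9.35 and 10.3 FPKM. The 7 fibroblast markers summed to 7.70, 10.5 and 17.7 FPKM, most of it Thy1, which was called lower in Lef1 P5 as deposited (-1.02) and with TMM scaling, but not with median-of-ratios (-0.99) or quantile (-0.97) scaling.

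The genes whose differences in Lef1 P2 and Lef1 P5 over empty vector P2 were nearest to those of a member were looked up among 10730 others, by the Euclidean distance of the 2 log2 differences. For Sox4 the nearest were Clk1, Cdca7 and D930048N14Rik (distance 0.0034 to 0.051). For Neurod1 they were Sfrp4, Nphs1 and Foxp1 (0.040 to 0.086). Sfrp4, the gene of a secreted Wnt antagonist, stood at 2.22, 2.28 and 7.36 FPKM in Lef1 P5, Lef1 P2 and empty vector P2, close to Neurod1 also in level. No nearest gene is given for Gap43, whose differences depend on the pseudocount because the Lef1 libraries have 3 reads or none. With 3 libraries these distances describe values only.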

How the data were processed

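RNA-seq of 3 libraries (Lef1 P5, Lef1 P2 and empty vector P2, 1 each) was used, as grouped by the labels. Per the file headers, the authors deposited an expected count and an FPKM value per Entrez gene with RefSeq transcripts and a length; expected counts need not be whole. The FPKM values fit a length shortened by 57 to 65 bases. The submitters' processing notes name Bowtie 0.12.2 and the build mm8, with the counting program, strand use and handling of multi-mapped reads not given in the sources used here. Symbols came from RefSeq GRCm38.p6 for 17951 of 17997 genes.

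Computed here (Python 3.11.15, scipy 1.17.1): log2((x + 1)/(y + 1)) of FPKM, calls, exact Poisson intervals, and exact conditional binomial intervals of ratios. Calls were tested on simulated data with 4-fold changes, counting error only and levels above the call minimum. That simulation does not bear on calls near the threshold or on differences between cultures. TMM factors came from edgeR 4.0.16 on rounded expected counts. A gene not listed was taken as 0. The members and the 17 gene lists were chosen with earlier results of these data known. Named genes are the members, Lef1, up to 3 highest and 3 lowest called and 4 most expressed genes of each list, 3 neighbours of Sox1 on each side and the 3 nearest genes to each member; others were named after their values were seen, and a few that the rule names are not reported here. Depth limits genes of a few reads, such as Pax6.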

Additional observations from a re-analysis of the deposited data

How the results depend on the processing

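No paired analysis was possible because each group has 1 library, and no replicate could be left out. The counts below are of the 9 members. In Lef1 P2 over empty vector P2, 1 was higher and 4 lower; a pseudocount of 5, a minimum of 10 FPKM and a 4-fold threshold each gave 0 higher and 1 lower, and each rescaling (median-of-ratios, TMM, quantile) gave 0 higher and 4 lower. In Lef1 P5 over empty vector P2, 3 were lower, against 0 with a pseudocount of 5 and with a minimum of 10 FPKM and 1 with a 4-fold threshold; with a pseudocount of 0.1 or a 1.5-fold threshold 4 were lower, Msi1 joining. In Lef1 P5 over Lef1 P2, 1 was lower, against 0 with a pseudocount of 5, median-of-ratios, TMM or quantile scaling and a 4-fold threshold; 2 were higher, against 0, with quantile scaling and with a 1.5-fold threshold. No called member changed sign under the pseudocounts, scalings and CPM tried. Neurod1, Sox4, Sox11 and Gap43 were called lower in Lef1 P2 over empty vector P2 with each of these scalings. The log2 difference ran from -1.65 to -0.80 for Neurod1 and from -5.69 to -1.01 for Gap43, whose size depends on the pseudocount because Lef1 P2 does not list it. Over all genes, the share of calls that were higher in Lef1 P2 over empty vector P2 came to 78.1% without rescaling, and to 62.6% (median-of-ratios), 62.5% (TMM) and 59.6% (quantile). In Lef1 P5 over Lef1 P2 it was 21.5% against 44.8%, 43.4% and 40.8%. Of all genes in Lef1 P2 over empty vector P2, 691 were higher and 194 lower, against 106 and 9 with a 4-fold and 1864 and 855 with a 1.5-fold threshold.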
